A study of Mus musculus with 9 samples.

Results

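Cryab and 5 other genes of the small heat shock protein family, Hspb1, Hspb2, Hspb3, Hspb6 and Hspb8, were followed in mouse brain. They were chosen by gene symbol and are 6 of the 19505 genes with a symbol on the array, each measured by 1 probe set, which is the group of probes that reads out 1 gene. The genes were chosen with earlier results known, and which comparison chose them is not recorded. It is taken here to be ob/ob vehicle against wild-type brain, where a low Cryab signal was already known. Values of the 6 genes in that comparison are therefore a description, and limma calls on them there support nothing. The comparisons with VE share arrays with it, so their p values are not independent of the choice either. The measured groups were ob/ob mice given VE, an extract of Vigna umbellata, at 100 mg/kg by oral gavage for 42 days, ob/ob mice given vehicle, and wild-type mice given vehicle, with 3 arrays each. The ob/ob mice (C57BL/6JHamSlc-ob/ob) lack working leptin, and the wild-type mice (C57BL/6JHamSlc-+/+) carry the same background. All were male, came at 6 weeks of age, had 1 week of acclimatization and ate standard chow. No group of wild-type mice given VE was analysed here. The labels do not say which region of the brain was taken or that each array is a separate animal, so the p values measure the spread between these arrays, which may be technical.

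Small heat shock proteins are ATP-independent chaperones that share an alpha-crystallin domain, assemble into oligomers and hold unfolding proteins until ATP-driven chaperones of the HSP70 and HSP40 families refold them. Cryab (alpha B-crystallin, also called HspB5) is abundant in lens and muscle and, in brain, in oligodendrocytes and astrocytes, and in human Alexander disease it collects with GFAP and HSPB1 in Rosenthal fibres. Hspb1 (mouse Hsp25) binds actin and intermediate filaments, and Hspb8 works with the co-chaperone Bag3 in autophagy of misfolded protein. Hspb2 binds the kinase Dmpk, Hspb3 is a partner of Hspb2 in muscle, and Hspb6 (Hsp20) takes part in smooth muscle relaxation. In humans, mutations of HSPB1, HSPB3 and HSPB8 cause motor neuropathies.

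Heat shock factor binds heat shock elements, repeats of GAA in alternating orientation, and 3 promoters of the family are printed because they hold the same 8-base inverted GAA pair. A RefSeq promoter window (GRCm38.p6, 250 bases before to 50 after the transcript start) was matched for 4 of the 6 genes, Hspb1, Hspb3, Hspb6 and Hspb8. The search was for GAANNTTC, which reads the same on both strands. The pair in the other order, TTCNNGAA, was searched too and stands in no window of these 4 genes. Capitals mark each match.
Hspb1, chr5:135887669-135887968, plus strand: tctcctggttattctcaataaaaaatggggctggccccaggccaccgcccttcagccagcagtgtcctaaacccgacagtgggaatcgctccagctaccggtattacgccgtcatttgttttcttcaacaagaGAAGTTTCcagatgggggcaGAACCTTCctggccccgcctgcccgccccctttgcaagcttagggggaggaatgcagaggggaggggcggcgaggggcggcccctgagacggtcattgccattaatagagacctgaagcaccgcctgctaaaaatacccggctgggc
Hspb6, chr7:30553051-30553350, plus strand: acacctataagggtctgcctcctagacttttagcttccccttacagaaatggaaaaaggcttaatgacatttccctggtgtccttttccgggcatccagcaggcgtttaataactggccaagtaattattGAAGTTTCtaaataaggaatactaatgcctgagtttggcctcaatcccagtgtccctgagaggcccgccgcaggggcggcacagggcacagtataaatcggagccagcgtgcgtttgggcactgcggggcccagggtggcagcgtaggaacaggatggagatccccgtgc
Hspb8, chr5:116422815-116423114, minus strand: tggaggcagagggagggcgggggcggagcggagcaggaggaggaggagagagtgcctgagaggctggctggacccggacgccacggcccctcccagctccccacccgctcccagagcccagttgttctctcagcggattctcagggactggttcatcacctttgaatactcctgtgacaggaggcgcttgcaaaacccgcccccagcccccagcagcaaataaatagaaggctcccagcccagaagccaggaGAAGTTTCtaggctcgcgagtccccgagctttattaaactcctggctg
The first match begins 117 bases before the start in Hspb1, which holds a second one, and 120 bases before it in Hspb6. In Hspb8 it lies just inside the transcript. Hspb3 holds a match 224 bases before its start, and a further window of Hspb6 holds none. Windows of Cryaa, Hspb7, Hspb9 and Hspb11, listed with the family, hold no match either. Over all 32851 promoter windows, 7.86% hold GAANNTTC. The 3 printed windows all carry GAAGTTTC, which is 1 form of GAANNTTC, was chosen after the windows had been read, and stands on either strand in 1.21% of windows. A match is a description of letters and not evidence of binding. Cryab and Hspb2 lie on chromosome 9, where the annotated span of Hspb2 falls inside that of Cryab. Positions of the array's probes were not used here, so whether either probe set reads a stretch that both genes share was not tested.

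The values below are log2 signals, normalized by the authors, so 1 unit is a doubling. A probe set's brightness depends on its probes as well as on its transcript, so levels are compared between arrays and not between genes. The mean of Cryab over the 9 arrays, 11.09, stood at the 88.2 percentile of all probe sets. Hspb6 stood at the 53.1, Hspb2 at the 45.1, Hspb8 at the 41.4, Hspb1 at the 39.9 and Hspb3 at the 6.35 percentile, so Hspb3 was read from a dim probe set. The second VE array stood apart, with a correlation of 0.962 to 0.970 with the other arrays against 0.979 to 0.993 among those 8. The SD of log2 signal over its probe sets was 2.38, against 2.8 on the first and 2.69 on the third VE array. This SD was 2.56 to 2.73 on the ob/ob vehicle arrays and 2.78 to 2.84 on the wild-type arrays. A narrower spread can lower bright and raise dim probe sets, and its part in the differences below was not tested. The neuron list had medians of 12.84 to 14.69 on the 9 arrays. Adipoq, the adiponectin gene of fat tissue, stood at 5.36 to 6.00 throughout. The design text names white adipose tissue beside the labels' brain. Differences of VE from ob/ob vehicle for the 6 genes and the partner genes named beside them are given without the second VE array where they move by over 1.5 times. For the partner genes this repeat was added after the data had been seen. Differences of VE from wild type moved as well. Without that array Hspb8 went from 0.08 to -0.14, Hspb3 from 0.06 to 0.38 and Hspb1 from -0.07 to -0.17. Bag3 went from 0.32 to -0.29 and Dmpk from 0.60 to 0.36.

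Cryab was lower in ob/ob brain, with or without VE, than in wild-type brain. Its log2 signal was 10.90, 10.47 and 10.73 in VE-treated ob/ob brains, 10.80, 10.22 and 10.07 in ob/ob vehicle brains, and 11.80, 12.38 and 12.46 in wild-type brains. All 6 ob/ob arrays lay below all 3 wild-type arrays, and the VE and vehicle arrays overlapped. The difference of ob/ob vehicle from wild type, the one taken as the basis of the choice, was -1.85 (SE 0.254), a 3.61-fold lower signal. In bulk brain, fewer cells that express a gene and less RNA per cell cannot be told apart. In VE-treated ob/ob brain Cryab was 2.85-fold lower than in wild type, at -1.51 (SE 0.254, limma adjusted p 0.0472 over 22206 probe sets, n = 3). This call shares its wild-type arrays with the comparison taken as the basis of the choice and is not independent of it. It was lost in 12 of 18 alternatives (limma adjusted p 3.37e-05 to 0.315), among them quantile normalization (change -1.20, adjusted p 0.167) and the fits without wild-type array 2 (-1.43) or 3 (-1.39). It held without the second VE array (-1.40, limma adjusted p 0.0298).

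VE treatment was not followed by a detectable change of Cryab. VE minus ob/ob vehicle was 0.34 (SE 0.254, 95% interval -0.21 to 0.88, limma adjusted p 0.606, n = 3), a range that takes in no change as well as a rise of up to 0.88. The estimate was 0.45 without the second VE array and 0.19 to 0.55 over the 18 alternatives. The ob/ob vehicle arrays are the same ones that gave the low value known beforehand.

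**Figure D1:**
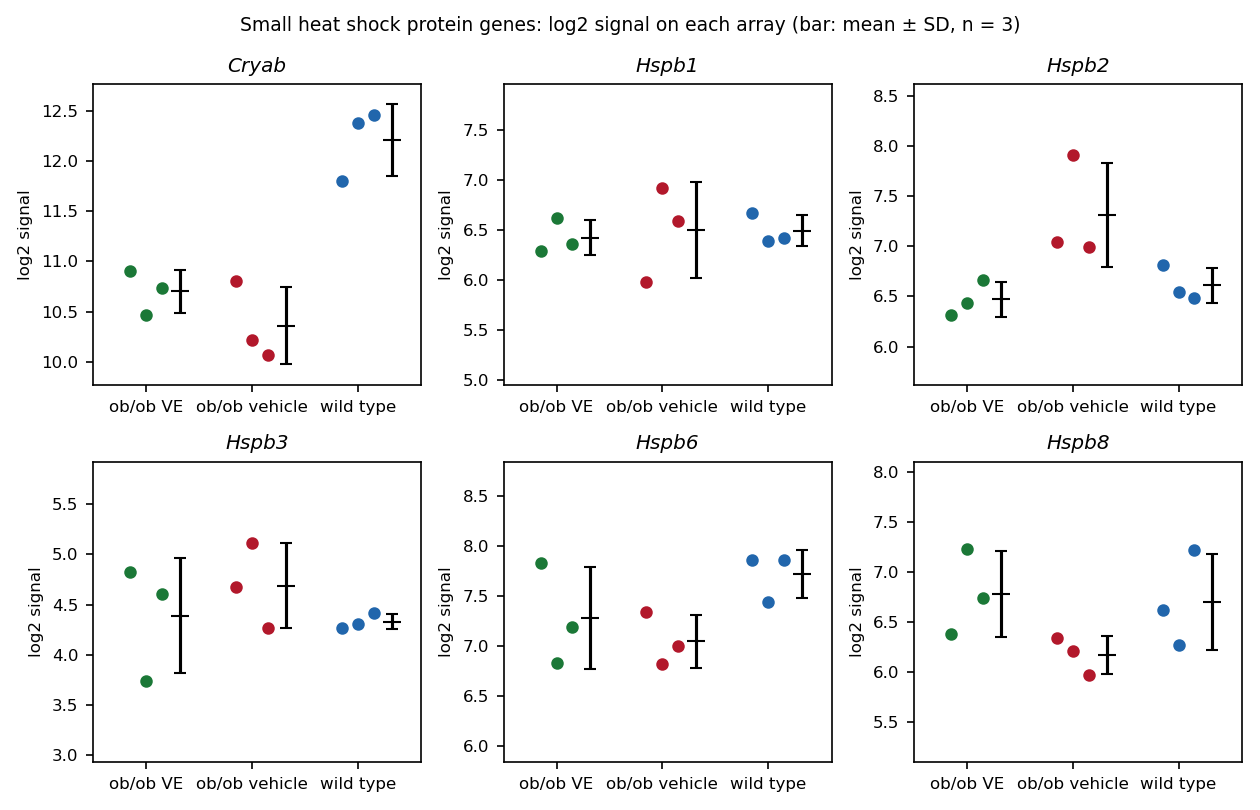
Log2 signal of each of the 6 genes on each array (points, replicates 1 to 3 of the labels from left to right) for ob/ob VE, ob/ob vehicle and wild type, with the group mean and SD (n = 3) beside them, and each panel spanning 3 log2 units. The 6 ob/ob arrays of Cryab sit between 10.07 and 10.90, below the wild-type arrays at 11.80 to 12.46, and the other 5 genes have no such gap.

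Hspb2, whose annotated span lies within that of Cryab, did not follow it. Its signal was 6.32, 6.43 and 6.66 in VE-treated ob/ob brains, 7.04, 7.91 and 6.99 in ob/ob vehicle brains, and 6.81, 6.54 and 6.48 in wild-type brains. The 3 ob/ob vehicle arrays were the highest of the 9, while VE and wild-type arrays overlapped. The difference was 0.70 (SE 0.254) for ob/ob vehicle against wild type, opposite in sign to that of Cryab. For VE against ob/ob vehicle it was -0.84 (SE 0.254, 95% interval -1.39 to -0.29, unadjusted p 0.00556), with a limma adjusted p of 0.16 over all probe sets and of 0.0261 to 0.448 across the 17 alternatives (n = 3), so it was not called. Ob/ob vehicle array 2 carried the highest value, 7.91, and without it the 2 differences were 0.40 and -0.54. Against wild type, VE brain differed by -0.14 (SE 0.254, limma adjusted p 0.848). Dmpk, the kinase that Hspb2 binds, named after its values were seen, averaged 9.14 in VE, 9.20 in ob/ob vehicle and 8.54 in wild-type brain. It had no called difference between VE and ob/ob vehicle, with a VE minus vehicle difference of -0.06 (SE 0.238, limma adjusted p 0.939, n = 3), and of -0.30 (limma adjusted p 0.447) without the second VE array.

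Hspb6 leaned the same way as Cryab with a smaller difference. Its signal was 7.83, 6.83 and 7.19 in VE-treated ob/ob brains, 7.34, 6.82 and 7.0 in ob/ob vehicle brains, and 7.86, 7.44 and 7.86 in wild-type brains. The ob/ob vehicle arrays lay below the wild-type arrays, and the VE arrays spanned both groups. The differences were -0.67 (SE 0.265) for ob/ob vehicle against wild type, 0.23 (SE 0.265, limma adjusted p 0.765) for VE against ob/ob vehicle, and -0.44 (SE 0.265, limma adjusted p 0.517) for VE against wild type (n = 3 each). Without the second VE array, the lowest of its group, the differences of VE were 0.46 (limma adjusted p 0.323) and -0.21 (limma adjusted p 0.845). Among the 15 pairs of members, Cryab and Hspb6 had the highest correlation over the 9 arrays (Pearson r 0.744, Spearman rho 0.887), and it was 0.445 on deviations from the group means. The range over the 15 pairs was -0.516 to 0.744, so the 6 genes did not move as 1 group.

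Hspb8 had its lowest mean in ob/ob vehicle brain. Its signal was 6.38, 7.23 and 6.74 in VE-treated ob/ob brains, 6.34, 6.21 and 5.97 in ob/ob vehicle brains, and 6.62, 6.27 and 7.22 in wild-type brains. Every VE array lay above every ob/ob vehicle array, by a margin of 6.38 against 6.34 at the closest. The difference of VE from ob/ob vehicle was 0.61 (SE 0.277, unadjusted p 0.0465) with a limma adjusted p of 0.365 over all probe sets and of 0.0677 to 0.71 across the 17 alternatives (n = 3), so it was not called. Without the second VE array, which held the highest VE value, it was 0.39. The difference of ob/ob vehicle from wild type was -0.53 (SE 0.277). Bag3, the partner of Hspb8, also named after its values were seen, stood at 6.23, 7.93 and 5.94 in VE, 6.22, 5.73 and 5.53 in ob/ob vehicle and 6.22, 6.23 and 6.68 in wild-type brains. Its highest value came from the second VE array, as that of Hspb8 did. Its correlation with Hspb8 over the 9 arrays was 0.806 (Spearman rho 0.723), and 0.768 without that array. Its VE minus vehicle difference was 0.87 (SE 0.411, limma adjusted p 0.383), and 0.26 (limma adjusted p 0.594) without that array.

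Hspb1 and Hspb3 showed no difference larger than the spread between arrays. Hspb1 had 6.29, 6.62 and 6.36 in VE-treated ob/ob brains, 5.98, 6.92 and 6.59 in ob/ob vehicle brains, and 6.67, 6.39 and 6.42 in wild-type brains. The ob/ob vehicle arrays of Hspb1 enclosed those of both other groups. VE minus ob/ob vehicle was -0.07 (SE 0.245, 95% interval -0.60 to 0.46, limma adjusted p 0.93, n = 3) and -0.17 without the second VE array, and its sign turned under quantile normalization, median centring and cyclic loess. Hspb3 had 4.82, 3.74 and 4.61 in VE-treated ob/ob brains, 4.68, 5.11 and 4.27 in ob/ob vehicle brains, and 4.27, 4.31 and 4.42 in wild-type brains. Its wild-type arrays kept within an SD of 0.0777, against 0.573 in VE and 0.42 in ob/ob vehicle brains. VE minus ob/ob vehicle was -0.30 (SE 0.289, 95% interval -0.92 to 0.33, limma adjusted p 0.709), and 0.03 without the second VE array.

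Counted together, 1 of the 6 genes (Cryab) passed limma's adjusted p under 0.05 in ob/ob vehicle against wild type, where 1.27% of all probe sets did. Nothing is read from that count, since this is the comparison taken as the basis of the choice. It ended without ob/ob vehicle array 2 (-1.78) or 3 (-1.7) or wild-type array 2 (-1.77) or 3 (-1.73). In VE against ob/ob vehicle 0 of 6 passed by limma, where 0.486% of all probe sets did, and Hspb2 and Hspb8 were under an unadjusted p of 0.05, as were 13.3% of all probe sets. In VE against wild type 1 of 6 passed, again Cryab, where 0.0991% of all probe sets did. Groups did not overlap for 3 of the 6 genes in ob/ob vehicle against wild type (33.3% of all probe sets), for 2 in VE against ob/ob vehicle (16.5%) and for 1 in VE against wild type (16.8%). The median change of the 6 genes was -0.26, 0.08 and -0.11 in the 3 comparisons, beside 0.02, -0.07 and -0.07 over all probe sets.

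**Figure D2:**
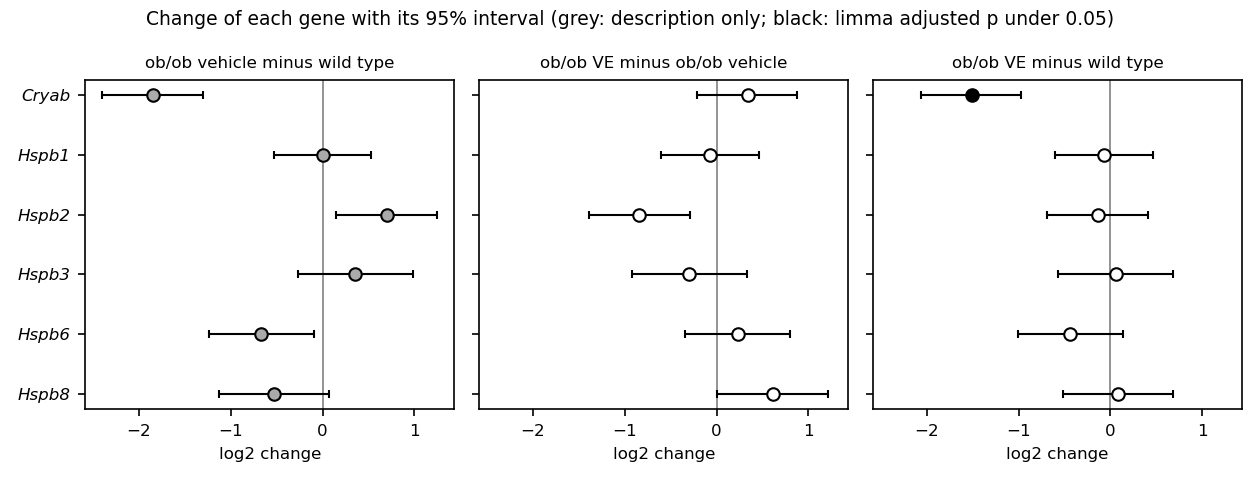
Log2 change of each gene (point) with its 95% interval from limma (bar) in the 3 comparisons, grey where the values are a description (ob/ob vehicle against wild type) and otherwise black where the adjusted p was under 0.05. Cryab lies at -1.85 on the left and is black at -1.51 in VE against wild type, while in VE against ob/ob vehicle no point is black and Hspb2 lies furthest from 0 at -0.84.

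Several genes of oligodendrocytes and astrocytes, cells that make Cryab in brain, were lower in the same comparison. In ob/ob vehicle against wild type, 3 of 14 measured myelinating oligodendrocyte genes were called, all lower, and all 14 had a negative change, with a median of -1.07. They were Fa2h, which hydroxylates the fatty acids of myelin lipids, at -1.66 (SE 0.216), Trf, the iron carrier transferrin, at -1.65 (SE 0.365), and Cldn11, the tight junction protein of myelin, at -1.34 (SE 0.300). Of the astrocyte list 3 of 12 were called lower, Sox9 at -1.53 (SE 0.203), Gfap at -1.40 (SE 0.278) and Aqp4 at -0.91 (SE 0.199), with a list median of -0.61. Of all probe sets 1.27% were called in this comparison. Both lists were written with earlier results of these data known, so their counts are a description. After quantile normalization 2 of the 14 myelin genes (median -0.83) and 1 of the 12 astrocyte genes (median -0.40) were called, and Trf, Gfap and Aqp4 were not. Of the same 2 lists, 5 and 3 genes were called lower after median centring, and 4 and 1 after cyclic loess. Of 10 neuron genes 0 were called by limma and 5 were under an unadjusted p of 0.05. Of all 22206 probe sets, 4457 were under it with a fold over 1.1. All 10 neuron genes had negative changes (median -0.61), against 8 of 10 after quantile normalization (median -0.27). After quantile normalization, median centring and cyclic loess 1 neuron gene was called lower, the neurofilament gene Nefm, at -0.80, -1.10 and -0.77.

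On each ob/ob array, Cryab lay further below the wild-type mean than the median of the myelin list did. Cryab was put forward with its low value already known, so its place below this list follows at least in part from the choice. The deviation of Cryab was -1.31, -1.74 and -1.48 in VE-treated ob/ob brains, where the myelin list had medians of -0.55, -1.45 and -0.66. It was -1.41, -1.99 and -2.14 in ob/ob vehicle brains, where the list had -0.86, -1.40 and -0.95. In wild-type brains Cryab deviated by -0.41, 0.17 and 0.25 and the list by -0.42, 0.43 and 0.06. On single arrays, 0, 4 and 0 of the 14 myelin genes lay further down than Cryab in VE and 1, 1 and 0 in ob/ob vehicle brains. By group means of the deposited values, none of the 14 myelin genes had a larger fall than Cryab in ob/ob vehicle against wild type. In VE against wild type 1 of 14, Mbp (myelin basic protein), was further down at -1.74 (SE 0.598, limma adjusted p 0.27). Without the second VE array Mbp was at -0.79 (limma adjusted p 0.326), above Cryab at -1.40. The list medians of astrocyte genes ran from -0.86 to -0.12 in VE, from -0.91 to -0.35 in ob/ob vehicle and from -0.10 to 0.06 in wild-type brains. In VE against wild type the median astrocyte change depended on the scaling. It was -0.74 with the deposited values, 0.01 after quantile normalization, -0.69 after median centring and -0.14 after cyclic loess. Without the second VE array it was -0.24, and the myelin median moved from -0.99 to -0.68. Single genes were called lower there, against 0 of either list with all 9 arrays. They were Gfap at -1.79 (limma adjusted p 0.00494), Sox9 at -1.07 (limma adjusted p 0.0434) and Fa2h at -1.27 (limma adjusted p 0.0208). The part of the myelin and astrocyte levels in the low Cryab signal was not tested.

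**Figure D3:**
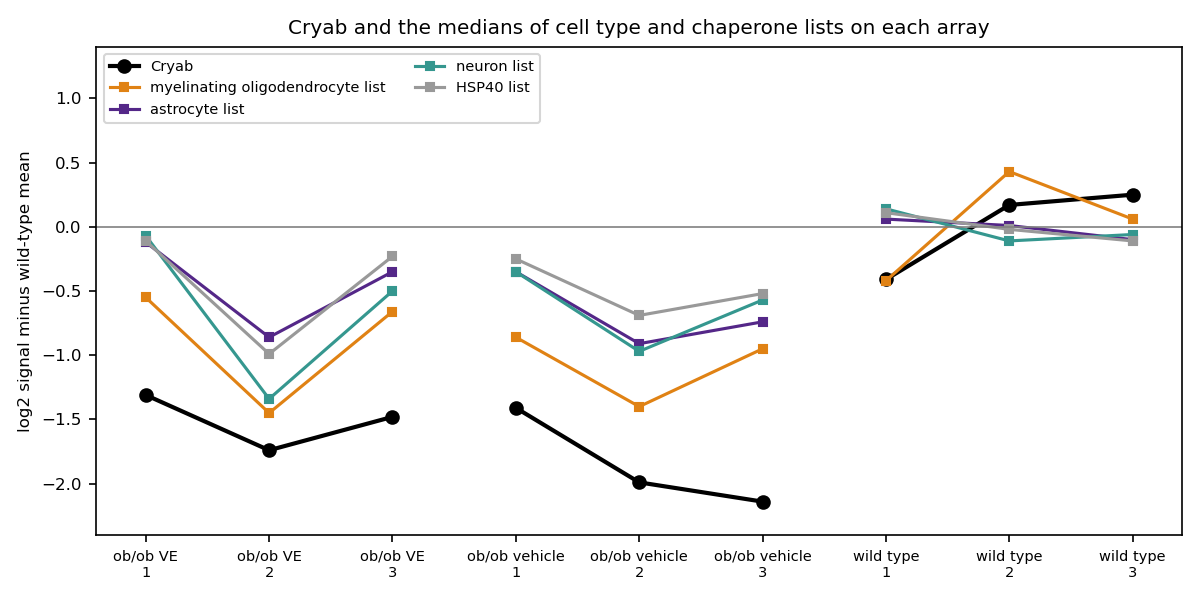
Log2 signal minus the wild-type mean (vertical axis) on each of the 9 arrays (horizontal axis) for Cryab and for the median of the myelinating oligodendrocyte, astrocyte, neuron and HSP40 lists, with lines that only join the points of a group. On all 6 ob/ob arrays Cryab, chosen with its low value known, lies below the 4 list medians. On the second VE array the myelin median (-1.45) comes nearest to it (-1.74).

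Of 10 genes of mural and smooth muscle cells, where Hspb6 is known to act, 0 were called by limma in any comparison and 2 were under an unadjusted p of 0.05 in ob/ob vehicle against wild type. Their medians were 0.08 there and -0.12 in VE against ob/ob vehicle. Of 10 genes listed to mark skeletal muscle carried into the sample, 0 were called by limma, with medians of 0.14 and 0.08. The 2 under that unadjusted p went opposite ways, Ckm at 0.68 and Pvalb at -0.90. Pvalb is not particular to muscle, and it was called lower after median centring (-0.98, limma adjusted p 0.0447). The medians in ob/ob vehicle against wild type were -0.30 for 10 endothelial, -0.45 for 7 oligodendrocyte precursor, 0.37 for 6 liver and 0.11 for 6 fat genes. In these 4 lists 0 genes were called by limma and 0, 2, 2 and 0 were under the unadjusted p. Of all 22206 probe sets, 4457 were under it with a fold over 1.1. The lists were written with earlier results of these data known, so nothing is read from such counts. Among 9 microglia genes 1 was called, the complement gene C1qb at -0.94 (SE 0.191, list median -0.59). After quantile normalization, median centring and cyclic loess 3 of the 9 were called lower each time, C1qb, Cx3cr1 and Csf1r. Among 9 choroid plexus genes 2 were called, the folate receptor Folr1 at -2.06 (SE 0.324) and Kl, which encodes klotho, at -2.01 (SE 0.422), with a list median of -0.85. Folr1 and Kl had larger negative changes than Cryab. In this comparison limma called 1.27% of all probe sets, and these lists too were written with earlier results known. The part of the choroid plexus and microglia levels in the Cryab signal was not tested.

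The 8 genes with the pattern most like Cryab had varied roles. None was on the chaperone lists, though Hspa12a of the HSP70 list came close (r 0.950). With 8 places among 9415 genes, nothing is read from that absence. They were ranked by Pearson r with Cryab over the 9 arrays among 9415 named genes above the median level, as a description without a test, since the 3 groups set most of the variation. The 8 highest were Tmem214 (r 0.980), a membrane protein of the endoplasmic reticulum, Ecrg4 (0.973), which choroid plexus makes as the precursor of a secreted peptide, Surf4 (0.967), a cargo receptor for export from the endoplasmic reticulum, Polr2e (0.965), a subunit shared by the RNA polymerases, Sema6d (0.961), a semaphorin, Tmem88b (0.957), Fa2h (0.955) and Pacs2 (0.955), a sorting protein of the contact between endoplasmic reticulum and mitochondria. Spearman's rho for them ran from 0.850 (Fa2h) to 0.967 (Ecrg4). On deviations from the group means, r ran from 0.544 (Fa2h) to 0.916 (Ecrg4).

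Ecrg4 had 7.57, 7.25 and 7.50 in VE-treated ob/ob brains, 7.59, 6.51 and 6.44 in ob/ob vehicle brains, and 8.21, 9.91 and 9.45 in wild-type brains. As with Cryab, the first wild-type array was the lowest of its group and the first ob/ob vehicle array the highest of its own. Ecrg4 and Tmem214 were picked by r over these arrays, so likeness of their values to Cryab follows from the choice. Tmem214 had 9.45, 9.09 and 9.26 in VE-treated ob/ob brains, 9.22, 9.04 and 9.14 in ob/ob vehicle brains, and 9.96, 10.16 and 10.15 in wild-type brains, again with no overlap between ob/ob and wild type. Among the 100 genes most like Cryab were 3 of 14 eligible myelin genes (Cldn11, Fa2h and Trf), 2 of 3 microglia genes (C1qa and Csf1r), 2 of 5 choroid plexus genes (Folr1 and Kl) and 1 of 12 astrocyte genes (Sox9). Of the eligible chaperones, 1 of 10 HSP70 and HSP110 genes (Hspa12a) was among them. The count was 0 of 15 for HSP40 genes, 0 of 10 for HSP90 genes and co-chaperones and 0 of 8 for chaperonins. A window of 100 among 9415 genes takes in few genes of any short list, so nothing is read from these chaperone counts.

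**Figure D4:**
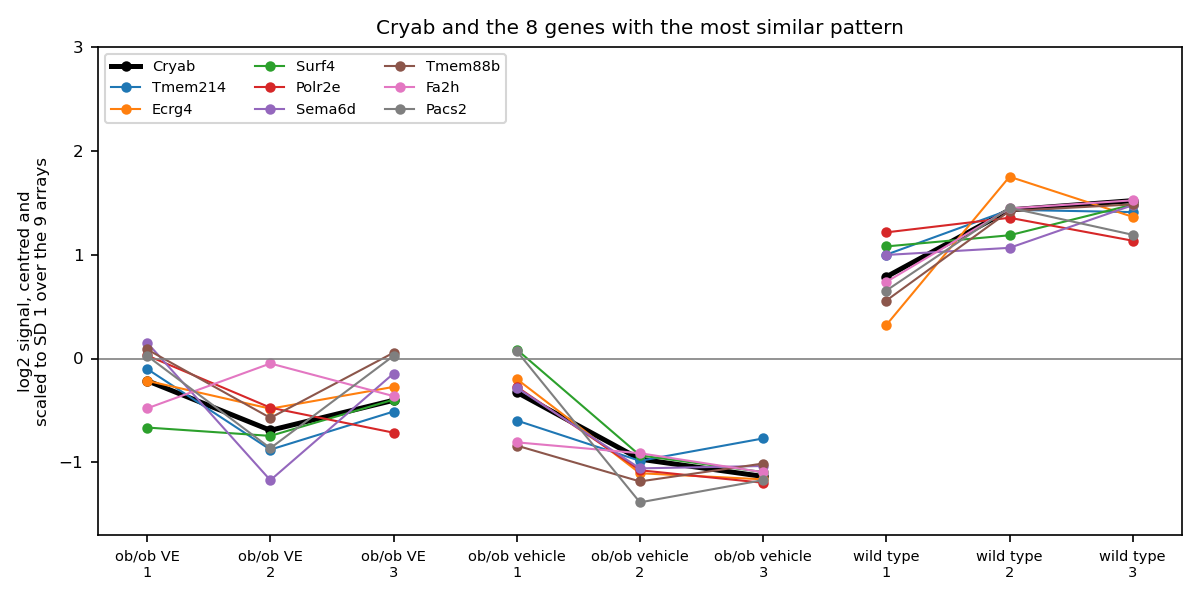
Log2 signal of Cryab (black) and of the 8 genes most like it on each of the 9 arrays, each gene centred and scaled to an SD of 1 over the arrays, with lines that only join the points of a group. All 9 genes are above their mean on the 3 wild-type arrays, and the order of the ob/ob arrays differs from gene to gene.

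The other 5 genes had different companions by the same measure. For Hspb6 they were Hsd17b12 (r 0.980), a reductase of fatty acid elongation, Epm2aip1 (0.980), which binds the glycogen phosphatase laforin, and Phyh (0.972), which starts the breakdown of phytanic acid in peroxisomes. For Hspb8 they were Vps35l (0.939), part of an endosomal recycling complex, Mapk11 (0.910), a p38 kinase, and Gad1 (0.863), which makes GABA. Gad1 averaged 10.77 in VE, 9.87 in ob/ob vehicle and 10.71 in wild-type brain, the same order of groups as Hspb8. Gad1 was picked by r over these arrays, so that order follows from the choice. Its VE minus vehicle difference was 0.90 (SE 0.224, limma adjusted p 0.0893, n = 3). For Hspb2 they were Zfp113 (0.965), Gpr45 (0.944) and Ccdc28b (0.931), for Hspb1 Ltbp4 (0.882), Ano1 (0.858) and Smad9 (0.857), and for Hspb3 Zmym1 (0.972), Tmem43 (0.969) and Mageb16 (0.967).

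The 5 remaining small heat shock protein genes on the array were not called in any comparison. Odf1, the outer dense fibre protein of sperm tails, came closest, with averages of 5.51 in VE, 6.43 in ob/ob vehicle and 5.60 in wild-type brain. Its arrays were 5.70, 5.30 and 5.54 in VE, 6.22, 6.68 and 6.38 in ob/ob vehicle, and 5.62, 5.63 and 5.55 in wild-type brains, so ob/ob vehicle stood above both other groups as it did for Hspb2. The differences were 0.83 (SE 0.202, limma adjusted p 0.0634) for ob/ob vehicle against wild type and -0.91 (SE 0.202, limma adjusted p 0.0653) for VE against ob/ob vehicle (n = 3). Cryaa, the alpha A-crystallin of the lens, differed by 0.25, Hspb7, of heart and muscle, by -0.26, Hspb9, of testis, by 0.27 and Hspb11, an intraflagellar transport protein, by -0.44 in ob/ob vehicle against wild type (limma adjusted p 0.348 to 0.525). In VE against ob/ob vehicle these 4 genes had limma adjusted p of 0.611 to 0.976.

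The ATP-driven chaperones to which small heat shock proteins hand their clients gave no call with the deposited values. In ob/ob vehicle against wild type, limma called 0 of 15 HSP40 and 0 of 9 chaperonin genes. It also called 0 of 12 HSP70 and HSP110 genes and 0 of 11 HSP90 and co-chaperone genes. In these lists in turn, 7, 2, 3 and 5 genes were under an unadjusted p of 0.05. Of all 22206 probe sets, 4457 were under it with a fold over 1.1, a smaller share than in the HSP40 list. The lists were written with earlier results of these data known, so nothing is read from these counts. After quantile normalization 3 of these chaperone genes were called. The HSP90 co-chaperone gene Fkbp5 was higher at 0.85, and Dnaja3 at -0.86 and the chaperonin gene Cct7 at -0.73 were lower. After cyclic loess the same 3 were called, and after median centring Hspa12a, Stip1, Dnaja3 and Cct3, all lower. All 15 HSP40 genes had negative changes (median -0.50), and 14 of 15 after quantile normalization (median -0.21). The chaperonin median was -0.35, and -0.07 after quantile normalization, and the HSP70 median was -0.24, and -0.02 after it. Dnaja3, the mitochondrial HSP40, was at -0.91 (SE 0.227, limma adjusted p 0.0649), Stip1, which links HSP70 and HSP90, at -1.0 (SE 0.232, limma adjusted p 0.0544), Hspa4l, an HSP110, at -1.03 (SE 0.289, limma adjusted p 0.0857) and Cct3, a chaperonin subunit, at -0.84 (SE 0.228, limma adjusted p 0.0799). None of these 4 passed with the deposited values.

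The classical heat-inducible genes, named for this role after their values were seen, did not pass either. Hspa1a averaged 8.37 in VE, 8.58 in ob/ob vehicle and 8.36 in wild-type brain, and Hspa1b 7.85, 7.71 and 7.6 in the same order. These 2 genes are near-identical copies, so their probe sets may share signal. Dnajb1, their HSP40 partner, averaged 9.99 in VE, 9.50 in ob/ob vehicle and 10.25 in wild-type brain, with limma adjusted p of 0.137 for ob/ob vehicle against wild type and 0.442 for VE against ob/ob vehicle.

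Of the 14 measured partners and regulators of small heat shock proteins, 1 was called in ob/ob vehicle against wild type, where 1.27% of all probe sets were. It was Gfap, the intermediate filament that Cryab binds. The call ended after quantile normalization (-1.13, limma adjusted p 0.109) and cyclic loess (-1.13, limma adjusted p 0.0796). Gfap averaged 10.55 in VE, 10.63 in ob/ob vehicle and 12.03 in wild-type brain, and its VE minus vehicle difference was -0.08 (SE 0.278, limma adjusted p 0.933, n = 3), and -0.39 (limma adjusted p 0.371) without the second VE array. Vim, the filament protein vimentin, was at -1.07 (SE 0.255, limma adjusted p 0.0592) and Synpo2, a partner of Bag3 at actin, at -0.72 (SE 0.252, limma adjusted p 0.142) in ob/ob vehicle against wild type. The list's median was -0.06 in that comparison and -0.07 in VE against ob/ob vehicle, beside 0.02 and -0.07 over all probe sets.

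**Figure D5:**
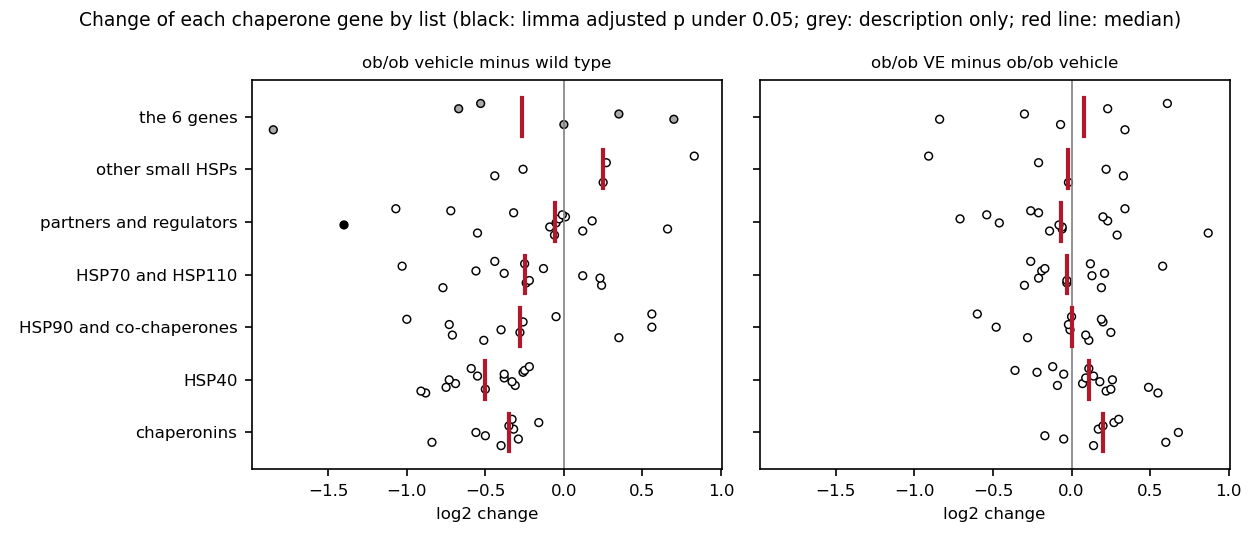
Log2 change of each measured gene (points, black where the limma adjusted p was under 0.05, and grey for the 6 genes on the left, which are a description) and median (red line) for the 6 genes and 6 chaperone-related lists, in ob/ob vehicle against wild type (left) and VE against ob/ob vehicle (right), with the deposited values. Left, Gfap at -1.40 is the black point, Cryab lies at -1.85 and the HSP40 median is -0.50 (-0.21 after quantile normalization). Right, no point is black and the list medians lie between -0.07 and 0.20.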

How the data were processed

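Gene signals were measured on 9 Clariom S mouse arrays, 3 per group. What the authors deposited are log2 signals (22206 probe sets) from SST-RMA, run with Transcriptome Analysis Console version 4.0.2 according to the labels and design text. They were used without further normalization. Of the probe sets, 19572 carried 1 gene symbol in the platform annotation and 2634 none, and a gene with several was represented by its brightest on average. No deposited sample column was left unused.

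Group means were fitted over the 9 arrays with limma 3.58.1 in R 4.3.3. The moderated fit had 6 residual degrees of freedom and gained 7.03 from the prior. Its p values were adjusted by Benjamini-Hochberg across every probe set and called at adjusted p under 0.05. Having only 3 arrays in each group limits the precision. The scripts were tested on simulated data.

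The members and the 17 gene lists were chosen with earlier results of these data known. Named genes were the 6 members, the other small heat shock protein genes, the called genes of each list filled to 3 by unadjusted p in ob/ob vehicle against wild type, and the genes most like a member (8 for Cryab, 3 for the others). Not every list gene that this rule selects is printed. Bag3, Dmpk, Hspa1a, Hspa1b, Mbp, Fkbp5 and Adipoq, and Dnajb1 as a heat-inducible gene, were named outside the rule or after their values were seen. Detection calls were not used. The alternatives were scaling, moderation, array weights, filters, thresholds, 2 groups alone, the replicate number as a block, and leaving out each array.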

Additional observations from a re-analysis of the deposited data

How the results depend on the processing

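The number of called probe sets depended strongly on the setting, so the calls above rest on the spread estimated from few arrays. In ob/ob vehicle against wild type it was 281 with the deposited values, 631 after quantile normalization, 614 after median centring, 808 after cyclic loess, 3601 with array weights, 4457 by the design text's rule (unadjusted p under 0.05, fold over 1.1), 1204 at adjusted p under 0.1, 2626 with the 2 groups alone, and 0 to 2975 when 1 array was left out, the highest without VE array 2. In VE against ob/ob vehicle it was 108, and 324, 71, 376, 3307, 2962, 433 and 0 under the same settings, 225 with trend and robust moderation, 180 above the median level, 0 with 1-symbol probe sets and 0 to 403 when 1 array was left out. In VE against wild type it was 22, and 0, 7, 0, 3286, 2707, 109 and 0 under the same settings, 10 with trend and robust moderation, 49 above the median level and 0 to 158 when 1 array was left out. The share of higher calls was 42.3% in ob/ob vehicle against wild type, and 60.4%, 27% and 60% after quantile normalization, median centring and cyclic loess, and in VE against ob/ob vehicle 2.78%, and 18.5%, 12.7% and 17.3%. Median centring moved the median of all probe sets in VE against ob/ob vehicle from -0.07 to 0.06.

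Among the 6 genes, the count called in ob/ob vehicle against wild type was 3 with array weights and by the design text's rule (Cryab, Hspb2 and Hspb6), 2 with the 2 groups alone (Cryab and Hspb6), and 0 to 1 when 1 array was left out. In VE against ob/ob vehicle it was 1 with array weights (Hspb2) and 2 by the design text's rule. In VE against wild type it was 0 after quantile normalization, median centring, cyclic loess, trend and robust moderation and with the 2 groups alone, and 0 to 1 when 1 array was left out. The change of Cryab kept its sign in all 18 alternatives of each comparison, at -2.07 to -1.58 in ob/ob vehicle and -1.72 to -1.20 in VE against wild type. Hspb1, at 0.00 in ob/ob vehicle against wild type, was -0.13, -0.07 and -0.14 after quantile normalization, centring and loess and -0.21 to 0.26 with 1 array left out. In VE against ob/ob vehicle it was 0.06, 0.05 and 0.06, and -0.33 to 0.14, Hspb3 was -0.51 to 0.03 and Hspb6 -0.04 to 0.46 with 1 array left out. In VE against wild type Hspb1 was -0.17 to 0.02 and Hspb8 -0.14 to 0.34 with 1 array left out, Hspb2 was 0.04 and Hspb8 -0.01 with array weights, and Hspb3 was -0.03 after quantile normalization, -0.06 after cyclic loess and -0.16 to 0.38 with 1 array left out. Of the 8 genes most like Cryab, all 8 stayed among the 100 highest under every scaling and with each array left out, 5 by Spearman's rho and 2 by deviations from the group means. Hspb1, Hspb2, Hspb3 and Hspb8 lay below the median level and had no value under that filter. The causes were not tested.

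Whether the replicate numbers pair the arrays is not settled. Deviations of same-numbered arrays correlated at -0.0323 to 0.331, highest between VE array 1 and ob/ob vehicle array 1. The own number was the best of 3 in 10 of 18 checks, more than an even spread over the 3 numbers would give. With the replicate block, 2 probe sets and 0 of the 6 genes were called in VE against wild type (Cryab -1.51, limma adjusted p 0.0721), and the block ended or added no other call among the 6 genes.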

Other observations

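Ranked by deviations from the group means, which leave out the differences between groups, the genes closest to Cryab were Mccc1 (r 0.970), of leucine breakdown in mitochondria, Clpp (0.966), the mitochondrial matrix protease, Fdps (0.952), of isoprenoid and cholesterol synthesis, Nars2 (0.946), the mitochondrial asparaginyl-tRNA synthetase, and Srr (0.942), which makes D-serine. Of these, Clpp also followed Cryab over the 9 arrays (r 0.953), with averages of 8.64 in VE, 8.35 in ob/ob vehicle and 9.09 in wild-type brain. Mccc1 did not (r -0.197), with 7.97, 8.35 and 7.93. Within groups, Cryab and Hspb1 had a correlation of -0.820 on such deviations, the lowest of the 15 pairs of members. These values rest on 9 arrays and 6 residual degrees of freedom.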
